A study of Homo sapiens with 6 samples.

Results

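The snoRNA host long noncoding RNAs are spliced transcripts whose introns carry small nucleolar RNAs (snoRNAs). The 10 described here, GAS5, ZFAS1, SNHG1, SNHG5, SNHG6, SNHG7, SNHG8, SNHG12, SNHG15 and SNHG16, were chosen by symbol through the GENCODE annotation, out of 58735 genes in the deposited table. All 10 passed the filter on low counts, as did 13503 genes in all. They were measured by poly(A) RNA sequencing in RKO, an established human cell line from a colorectal carcinoma. Cells were treated with EZA (3 libraries) or with DMSO, the solvent control (3 libraries), and the study calls the replicates biological. EZA is not spelled out in the labels. The sources used here give neither dose nor duration. The comparison asks which transcripts differ between EZA-treated and DMSO-treated cells.

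A host gene of this kind is transcribed by RNA polymerase II, and its snoRNAs are trimmed out of the excised introns. Box C/D snoRNAs guide methylation of ribosomal RNA at the ribose, and box H/ACA snoRNAs guide the conversion of uridine to pseudouridine. The spliced exons have little coding capacity. Many of these RNAs begin with an oligopyrimidine tract, as ribosomal protein mRNAs do, which ties their translation to mTOR activity. When ribosomes engage such an RNA they meet early stop codons, and nonsense-mediated decay (NMD) removes it, so several hosts are known to accumulate when translation slows. The libraries read the spliced poly(A) host and not the snoRNAs.

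The starts of the hosts are shown first because the oligopyrimidine tract is part of how they were chosen. Each window holds 40 bases before and 30 bases from the start shared by the largest number of the gene's GENCODE 44 transcripts, so the start is the base after the first 40. Sequences are from GRCh38, 5′ to 3′, and capitals mark the run of at least 5 pyrimidines nearest to the start and any TATAA in the 16 to 40 bases before it. The windows are SNHG7 chr9:136728155-136728224 (minus strand), SNHG8 chr4:118278718-118278787 (plus strand), SNHG12 chr1:28581844-28581913 (minus strand), GAS5 chr1:173867960-173868029 (minus strand), ZFAS1 chr20:49278602-49278671 (plus strand), SNHG1 chr11:62855856-62855925 (minus strand), SNHG5 chr6:85678719-85678788 (minus strand), SNHG16 chr17:76557726-76557795 (plus strand). The 3 hosts whose level changed between the groups come first.
SNHG7: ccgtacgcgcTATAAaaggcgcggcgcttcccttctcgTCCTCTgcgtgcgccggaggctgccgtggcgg
SNHG8: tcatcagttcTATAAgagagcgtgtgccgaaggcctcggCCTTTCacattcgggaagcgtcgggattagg
SNHG12: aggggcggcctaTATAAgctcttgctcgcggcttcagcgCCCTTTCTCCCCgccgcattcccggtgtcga
GAS5: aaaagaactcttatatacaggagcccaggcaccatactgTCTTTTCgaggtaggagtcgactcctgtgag
ZFAS1: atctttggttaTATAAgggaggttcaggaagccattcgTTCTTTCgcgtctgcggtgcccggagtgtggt
SNHG1: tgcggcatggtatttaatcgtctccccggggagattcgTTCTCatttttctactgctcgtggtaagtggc
SNHG5: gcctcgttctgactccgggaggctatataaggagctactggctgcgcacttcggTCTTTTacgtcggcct
SNHG16: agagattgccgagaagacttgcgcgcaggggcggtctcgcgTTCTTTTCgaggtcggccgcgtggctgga
At this start, 5 of the 10 hosts (GAS5, ZFAS1, SNHG6, SNHG8 and SNHG12) had a C followed by at least 4 pyrimidines, against 3.56% of 13445 tested genes with an annotated start. Counted from the start itself, SNHG12 had the most pyrimidines in a row, 11, and SNHG6 had 7. With bases before the start included, the run was 12 in SNHG12 and 13 in SNHG6. In SNHG5 and SNHG16 the nearest tract lay inside the transcript, from base 15 in SNHG5 and from base 2 in SNHG16. SNHG15 had no run of at least 5 pyrimidines near its start. The windows of SNHG6 and SNHG15 are not shown. SNHG7 and SNHG1 began with 4 and 3 pyrimidines. TATAA lay on the gene's strand in 4 hosts (ZFAS1, SNHG7, SNHG8 and SNHG12), against 2.26% of the same genes, and on the other strand in GAS5 and ZFAS1, against 1.12%. SNHG5 holds a TATAA just closer to its start than the window searched, so it is not counted. TATAA and its complement TTATA were both searched and can share bases. The tract is part of the rule, and the annotated start may not be the start used in these cells.

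The RefSeq gene list for GRCh38.p14 places 37 snoRNA genes within the 10 hosts, 28 of box C/D, 8 of box H/ACA and 1 unclassed. GAS5 holds 11 and SNHG1 holds 9, while SNHG6, SNHG8 and SNHG15 hold 1 each. GAS5, SNHG7, SNHG8, SNHG12 and SNHG15 hold at least 1 box H/ACA snoRNA, and the other 5 hold none. Of 26 rows of the table for snoRNA genes that GENCODE places in these hosts, 22 had no count in any library. The other 4 had 15 counts in the EZA libraries and 38 in the DMSO libraries together, so the snoRNAs themselves were not measured. For the 3 hosts that changed, the snoRNA genes shown are SNORA17A of SNHG7 (chr9:136726747-136726879, minus strand), SNORA24 of SNHG8 (chr4:118279190-118279320, plus strand) and SNORD99 of SNHG12 (chr1:28578749-28578822, minus strand), read from GRCh38. Capitals mark the ACA box, which lies 3 bases from the 3′ end in SNORA17A and SNORA24, and the CTGA of the D box in SNORD99.
SNORA17A: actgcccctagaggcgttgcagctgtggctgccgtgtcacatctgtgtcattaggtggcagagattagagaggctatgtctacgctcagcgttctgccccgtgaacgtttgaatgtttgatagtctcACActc
SNORA24: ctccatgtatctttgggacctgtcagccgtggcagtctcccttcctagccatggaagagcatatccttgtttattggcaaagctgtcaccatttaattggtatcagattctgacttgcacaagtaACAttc
SNORD99: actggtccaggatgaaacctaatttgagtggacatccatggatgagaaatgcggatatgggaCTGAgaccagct

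Libraries held 14070611 to 18840954 counts in EZA and 15343614 to 15778418 in DMSO. EZA replicate 3 stood apart, with 0.203% of its counts in mitochondrial genes against at least 3.68% in the other 5 libraries. It differed by at least 1.5-fold from the mean of EZA replicates 1 and 2 in 26.5% of tested genes. Results are therefore given with and without it. Of 8 epithelial and colon markers, KRT18, KRT8, EPCAM and CDX2 passed the filter. CDH1 and LGR5 had no count in any library, and KRT19 and VIL1 had at most 4 counts over all 6. Of 12 fibroblast, immune and endothelial markers none passed, and 8 had no count.

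SNHG7 and SNHG8 rose in EZA-treated cells and SNHG12 fell, while the other 7 hosts missed the threshold. Levels are given as CPM, counts scaled to library size. In bulk samples, fewer cells that hold an RNA and less of it per cell cannot be told apart. SNHG7 rose 2.44-fold and SNHG8 2.01-fold, and SNHG12 was at 0.605 of its DMSO level. These 3 of 10 calls (edgeR quasi-likelihood test, adjusted p below 0.05) stand beside 17.7% of all tested genes called, 9.89% higher and 7.82% lower. The cut-off that the study states, unadjusted p below 0.05 and a log2 ratio of 1 or more in either direction, was met by SNHG7 and SNHG8, and by 5.73% of all tested genes. With EZA replicate 3 left out, 5 hosts were higher (GAS5, SNHG5, SNHG6, SNHG7 and SNHG8) and SNHG12 was lower. In that fit 38.4% of all tested genes were called, 19.1% higher and 19.2% lower, and no host met the study's threshold, against 5.33% of genes. After correction for GC content and length, both taken from the longest annotated transcript, GAS5, SNHG5, SNHG7 and SNHG8 were higher and SNHG12 was lower. There 11.7% of all genes were called, 6.72% higher and 4.99% lower, and SNHG8 alone met the study's threshold, against 3.77% of genes. Under this correction and without EZA replicate 3, 5 hosts were higher and SNHG12 was lower, where 38.6% of genes were called, 20.4% higher and 18.2% lower, and 4% met the study's threshold, as did SNHG12.

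**Figure D1:**
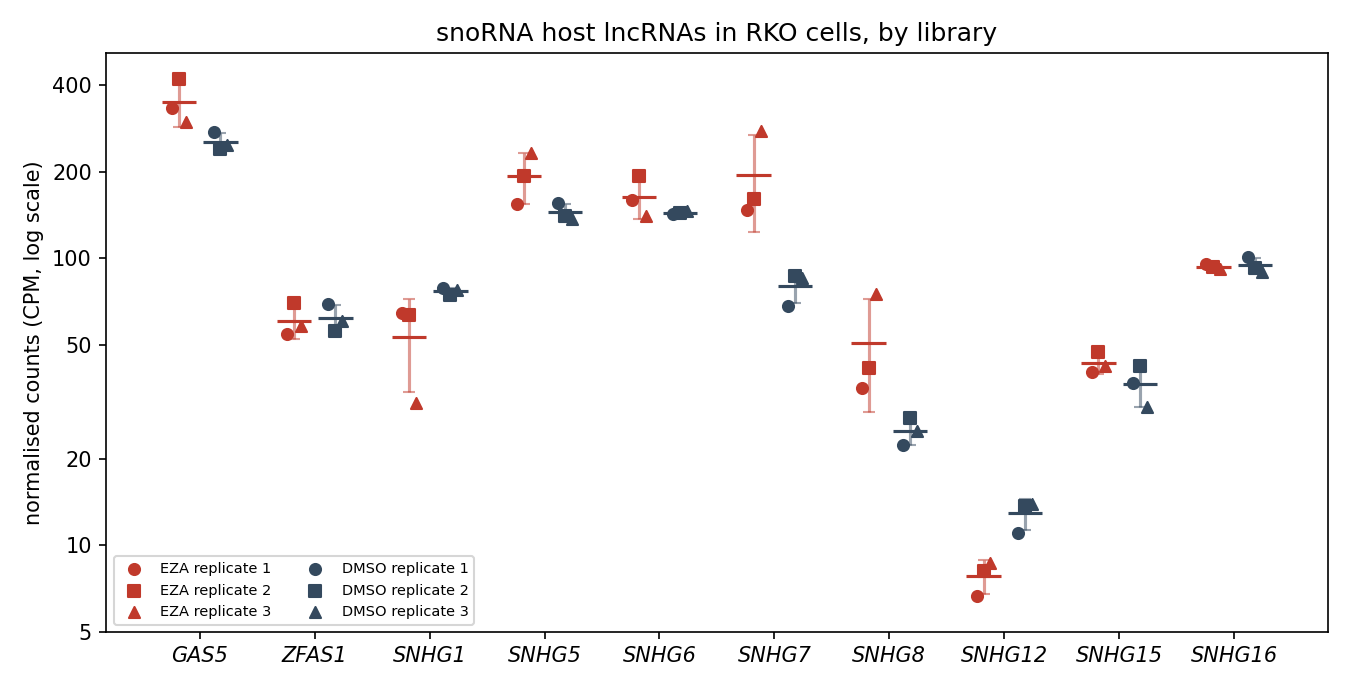
Normalised counts (CPM after TMM scaling, logarithmic axis) of the 10 hosts, with EZA in red and DMSO in dark blue. Each point is a library, and the bar is the mean of its group and the whiskers span 1 SD (n = 3 each). The groups are apart in SNHG7, SNHG8, SNHG12, GAS5 and SNHG1.

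SNHG7 (ENSG00000233016, chromosome 9, 136721366 to 136728184, minus strand) is a lncRNA gene that hosts SNORA17A and SNORA17B. It had 147, 161 and 278 CPM in EZA replicates 1 to 3, against 68.4, 86.7 and 85.2 CPM in DMSO replicates 1 to 3. Every EZA library lay above every DMSO library, and EZA replicate 3 was the highest. The means were 196 ± 72.0 CPM in EZA and 80.1 ± 10.2 CPM in DMSO (SD, n = 3 each), a log2 ratio of 1.29 ± 0.24 (SE; adjusted p = 0.0117, edgeR). In the fit without EZA replicate 3 the log2 ratio was 0.95 ± 0.11 (adjusted p = 9.59e-09). SNHG7 has the highest GC content of the 10, at 65.9% in its longest transcript, against 39.0% to 56.6% in the others. After correction for GC content and length its log2 ratio was 0.72 (adjusted p = 0.0359), and 0.51 when EZA replicate 3 was also left out (adjusted p = 4.18e-06).

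SNHG8 (ENSG00000269893, chromosome 4, 118278703 to 118285316, plus strand) hosts the single snoRNA SNORA24. Its level was 35.2, 41.6 and 74.9 CPM in EZA replicates 1 to 3, against 22.4, 27.8 and 25.1 CPM in DMSO replicates 1 to 3. All EZA libraries were above all DMSO libraries, again with EZA replicate 3 the highest. The means were 50.6 ± 21.3 CPM in EZA and 25.1 ± 2.69 CPM in DMSO, a log2 ratio of 1.01 ± 0.27 (adjusted p = 0.0343, edgeR). With EZA replicate 3 left out it was 0.62 ± 0.13 (adjusted p = 1.79e-04), and after correction for GC content and length 1.30 (adjusted p = 0.0259). The longest annotated SNHG8 transcript, used for this correction, has 6166 bases. In DMSO replicate 1 SNHG8 had 22.4 CPM and 23.8 FPKM, so the length behind the deposited FPKM was far shorter. Whether 1.30 holds at that length was not tested.

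SNHG12 (ENSG00000197989, chromosome 1, 28578538 to 28583132, minus strand) hosts SNORD99, SNORA61, SNORA44 and SNORA16A and was the least abundant of the 10. It had 6.67, 8.12 and 8.70 CPM in EZA replicates 1 to 3, against 11.1, 13.7 and 13.998 CPM in DMSO replicates 1 to 3. These came from 105, 147 and 123 counts in EZA and 177, 215 and 219 counts in DMSO. All EZA libraries were below all DMSO libraries, and EZA replicate 3 lay close to EZA replicate 2. The log2 ratio was -0.72 ± 0.18 (adjusted p = 0.0284, edgeR), and -0.80 ± 0.17 without EZA replicate 3 (adjusted p = 2.55e-04).

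The calls of SNHG7, SNHG8 and SNHG12 were each lost without DMSO replicate 1, 2 or 3, where the adjusted p reached 0.0825, 0.155 and 0.1355, and that of SNHG12 also without EZA replicate 1 or 2. Calls over all genes numbered 220, 787 and 254 when DMSO replicate 1, 2 or 3 was omitted, and 1574 and 1469 when EZA replicate 1 or 2 was.

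GAS5 (growth arrest specific 5, ENSG00000234741, chromosome 1, 173858559 to 173868882, minus strand) was first found as an RNA that accumulates in growth-arrested cells and is a standard example of an NMD target. It was the most abundant host by counts, with 334, 421 and 297 CPM in EZA replicates 1 to 3, against 274, 240.7 and 248 CPM in DMSO replicates 1 to 3. The groups did not overlap, but EZA replicate 3 lay near the highest DMSO library. Its log2 ratio of 0.46 ± 0.15 had a 95% interval of 0.11 to 0.82 and missed the threshold (adjusted p = 0.0688, edgeR). In the fit without EZA replicate 3 GAS5 rose by 0.57 ± 0.11 (adjusted p = 5.96e-05), and after correction for GC content and length by 0.71 (adjusted p = 0.0152). It was called under 6 of 15 alternatives, with an adjusted p between 3.51e-08 and 0.232.

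SNHG5 (ENSG00000203875, chromosome 6, 85650491 to 85678932, minus strand), host of the box C/D snoRNAs SNORD50A and SNORD50B, had 154, 194 and 232 CPM in EZA replicates 1 to 3, against 156, 140 and 137 CPM in DMSO replicates 1 to 3. EZA replicate 1 lay below DMSO replicate 1, so the groups overlapped. The log2 ratio was 0.42 ± 0.16 (adjusted p = 0.0995, edgeR), and it was 0.27 ± 0.11 without EZA replicate 3 (adjusted p = 0.0476). SNHG6, which hosts SNORD87, had 159, 193 and 140 CPM in EZA and 143, 143 and 145 CPM in DMSO. EZA replicate 3 was the lowest of its 6 libraries and EZA replicate 2 the highest. Its log2 ratio was 0.19 ± 0.14 (adjusted p = 0.370), and 0.29 ± 0.11 without EZA replicate 3 (adjusted p = 0.0287).

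SNHG1 (ENSG00000255717, chromosome 11, 62851978 to 62855953, minus strand) hosts SNORD22 and SNORD25 to SNORD31, apart from its unclassed snoRNA. It had 64.4, 63.3 and 31.3 CPM in EZA replicates 1 to 3, against 78.9, 74.6 and 77.3 CPM in DMSO replicates 1 to 3. Every EZA library was below every DMSO library, and EZA replicate 3 was by far the lowest. The log2 ratio was -0.54 ± 0.25, with a 95% interval of -1.09 to 0.02 (adjusted p = 0.157, edgeR). With EZA replicate 3 left out it was -0.27 ± 0.11 (adjusted p = 0.0551).

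ZFAS1, SNHG15 and SNHG16 missed the threshold under all 15 alternatives. ZFAS1, which lies beside the ZNFX1 promoter and hosts SNORD12, SNORD12B and SNORD12C, had 54.3, 69.7 and 57.9 CPM in EZA and 69.5, 55.9 and 60.5 CPM in DMSO, a log2 ratio of -0.03 with a 95% interval of -0.36 to 0.30. SNHG16, host of SNORD1A, SNORD1B and SNORD1C, had 95.4, 92.9 and 91.8 CPM in EZA and 101.05, 92.4 and 89.7 CPM in DMSO. Its log2 ratio was -0.02, with a 95% interval of -0.28 to 0.24 (adjusted p = 0.938, edgeR). The signs of ZFAS1 and SNHG16 turned under some alternatives. SNHG15, which hosts SNORA9, had 40.1, 47.2 and 42.3 CPM in EZA and 36.8, 42.2 and 30.2 CPM in DMSO, with an overlap between the groups and a 95% interval of -0.11 to 0.60.

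The groups did not overlap in 5 of the 10 hosts, with EZA above DMSO in GAS5, SNHG7 and SNHG8 and below it in SNHG1 and SNHG12. Over all tested genes they did not overlap in 42.7%, 21% above and 21.7% below. The summed level of the 10 hosts was 1091, 1292 and 1255 CPM in EZA replicates 1 to 3, against 961, 918 and 912 CPM in DMSO replicates 1 to 3. The median log2 ratio of the 10 was 0.22, and 0.27 without EZA replicate 3, against -0.01 for all tested genes in both fits. By snoRNA class, 3 of the 5 hosts with a box H/ACA snoRNA were called, 2 higher and 1 lower, and 0 of the 5 without, beside 17.7% of all genes. In the fit without EZA replicate 3 the counts were 4 of 5 and 2 of 5, beside 38.4%. This grouping was made after the values were seen, and nothing is read from it.

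**Figure D2:**
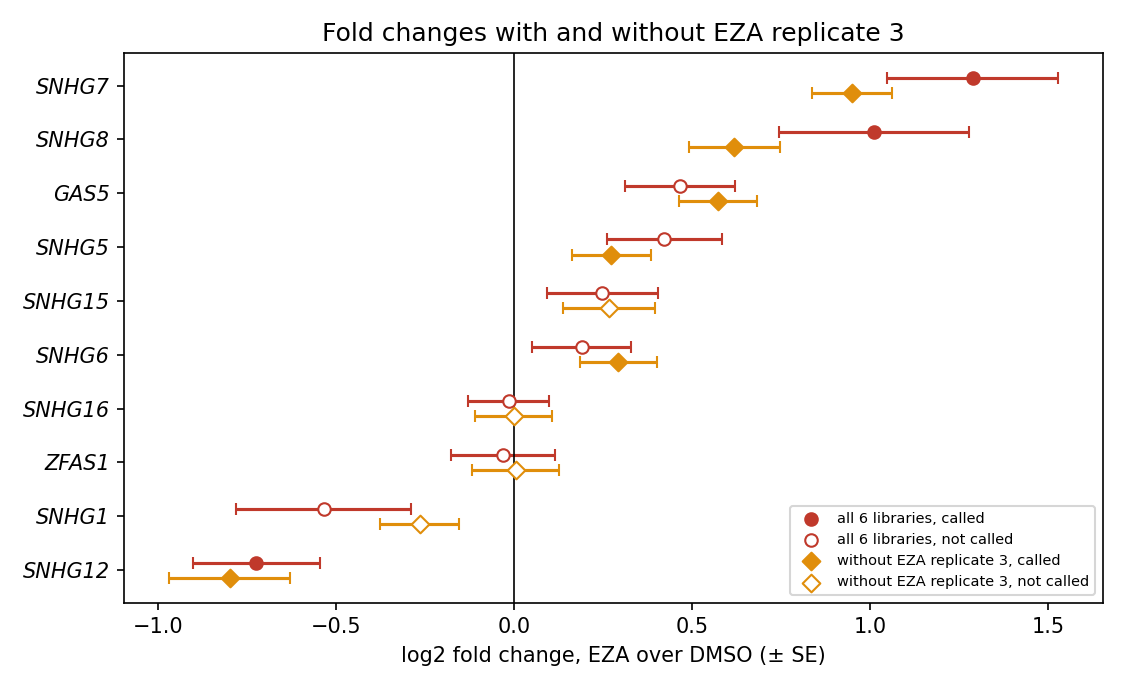
Log2 ratio, EZA over DMSO, of each host with its SE, from all 6 libraries (circles) and without EZA replicate 3 (diamonds). Filled symbols are called at an adjusted p below 0.05: 3 hosts with all libraries and 6 without EZA replicate 3.

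EZA replicate 3 differed from the mean of EZA replicates 1 and 2 by at least 1.5-fold in 3 hosts, against 26.5% of all genes. It was higher by 0.85 in SNHG7 and 0.96 in SNHG8 on the log2 scale, and lower by a log2 difference of -1.03 in SNHG1. In SNHG12 and SNHG16 it differed by 0.23 and -0.04. EZA replicates 1, 2 and 3 had 7, 7 and 5 of the 10 hosts above the DMSO mean, with medians of 0.12, 0.40 and 0.09 on the log2 scale. What sets EZA replicate 3 apart was not tested.

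**Figure D3:**
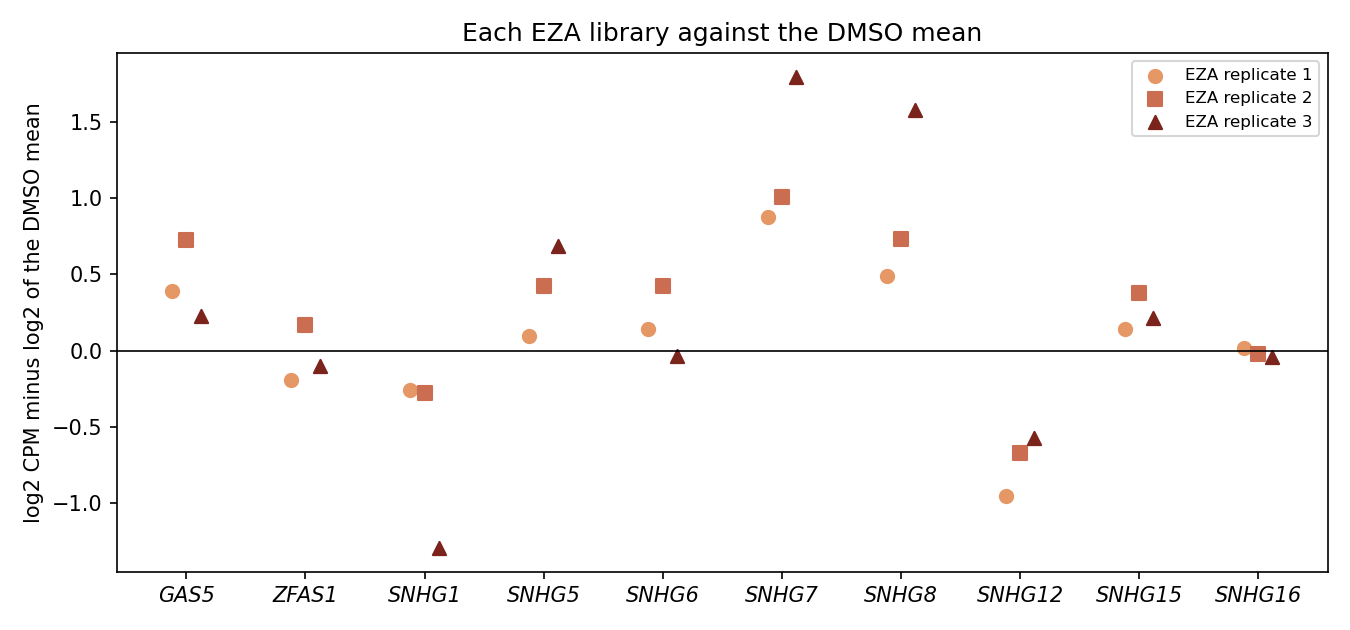
Log2 CPM of each EZA library minus the log2 of the DMSO mean, for the 10 hosts. EZA replicate 3 (triangles) lies farthest from the DMSO mean in 5 hosts, at -1.30 in SNHG1, 1.80 in SNHG7, 1.58 in SNHG8, 0.69 in SNHG5 and -0.04 in SNHG16.

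Levels of different hosts were compared per length, on the deposited FPKM values. In EZA, SNHG6 was the highest at 130 ± 22.7 FPKM (SD, n = 3), followed by GAS5 at 95.8 ± 18.6, SNHG5 at 68.2 ± 13.5, SNHG8 at 54.1 ± 22.4 and SNHG7 at 44.5 ± 15.99 FPKM. The ranges of each neighbouring pair among these 5 overlapped. In DMSO the order was led by SNHG6 at 113 ± 0.845 FPKM, GAS5 at 68.7 ± 4.74 and SNHG5 at 50.5 ± 3.69 FPKM, with no overlap between neighbours. ZFAS1 at 27.1 ± 2.98 and SNHG8 at 26.7 ± 2.94 FPKM overlapped next in DMSO, as did SNHG1, SNHG7 and SNHG16 between 17.3 and 20.1 FPKM. SNHG12 was the lowest in both groups, at 1.82 ± 0.243 FPKM in EZA and 2.97 ± 0.370 FPKM in DMSO. SNHG7 had rank 5 in EZA and rank 7 in DMSO.

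By the outer ends of both annotated genes, SNHG1 starts 51 bases from SLC3A2, which runs the other way. The SNHG1 window shown above uses a start that lies inside that end. SLC3A2 encodes CD98hc, the heavy chain that carries the cystine transporter SLC7A11 and the large neutral amino acid transporter SLC7A5 to the membrane. SLC3A2 had 897, 996 and 1589 CPM in EZA replicates 1 to 3, against 218, 257 and 223 CPM in DMSO replicates 1 to 3. It rose by a log2 ratio of 2.32 ± 0.23 (adjusted p = 0.00100, edgeR), while its partner SNHG1 was at -0.54. Per 100 CPM of SLC3A2 there were 7.19, 6.36 and 1.97 CPM of SNHG1 in EZA, against 36.2, 29.0 and 34.6 in DMSO. The ratio was lower in all 3 EZA libraries, as it had to be with every EZA library above DMSO in SLC3A2 and below it in SNHG1. The exact two-sided permutation test was thus bound to give p = 0.1, the smallest that 3 against 3 allows, and nothing is read from it.

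SNHG12 overlaps TRNAU1AP on the other strand, the gene of a protein of selenocysteine tRNA handling, which had 24.3, 29.9 and 28.8 CPM in EZA and 22.1, 20.6 and 19.7 CPM in DMSO. TRNAU1AP thus lay above DMSO in all EZA libraries where SNHG12 lay below, with a log2 ratio of 0.41 ± 0.14 that missed the threshold (adjusted p = 0.0729, edgeR). DIPK1B, on the strand opposite SNHG7, rose by 1.501 ± 0.41 (adjusted p = 0.0388, edgeR) on few reads, 75 counts in EZA and 26 in DMSO. Its call was kept in 1 of the 6 fits that leave out a library. DIPK1B had 1.78, 1.33 and 1.63 CPM in EZA replicates 1 to 3, against 0.438, 0.319 and 0.895 CPM in DMSO replicates 1 to 3. It thus passed the low-count filter through its EZA libraries, and nothing is read from its call. PRSS12, opposite SNHG8, was at -0.07 ± 0.14, ZNFX1, opposite ZFAS1, at -0.13 ± 0.13, and ZBTB37, which overlaps GAS5, at 0.17 ± 0.20, and none of these 3 was called. The antisense gene GAS5-AS1 had 14 counts in EZA and 16 in DMSO. The libraries do not mark strand, so reads in the overlaps cannot be assigned to 1 gene. The pseudogene ENSG00000274356 near SNHG7 had under 2 CPM in every library and was not called.

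**Figure D4:**
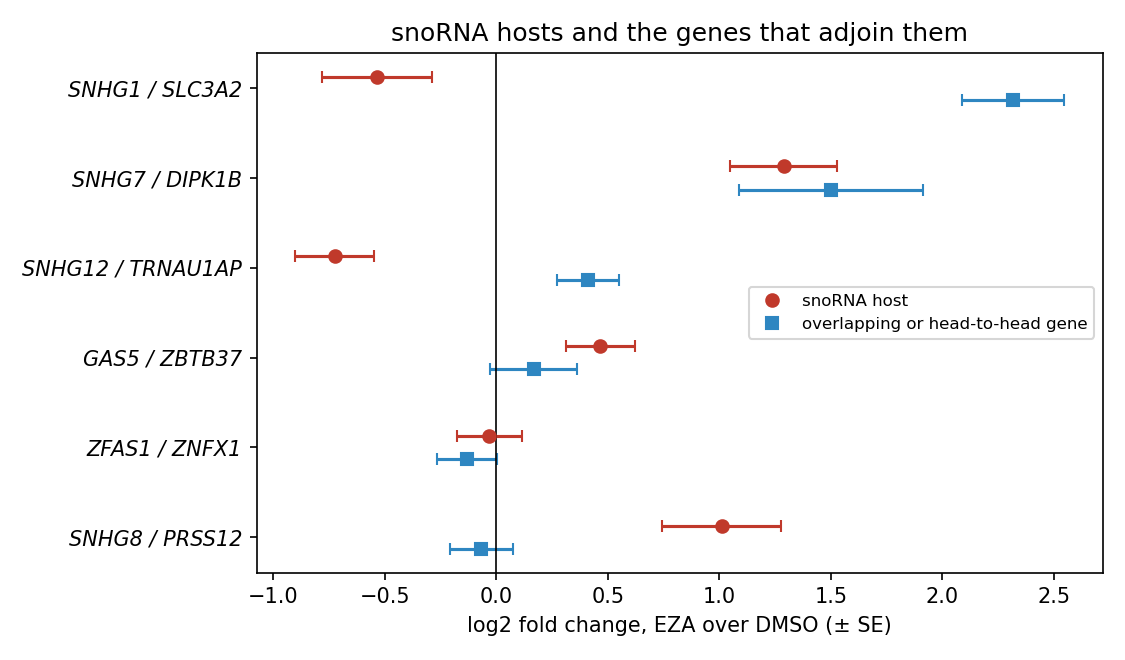
Log2 ratio, EZA over DMSO, with its SE, of hosts (red circles) and of the gene that overlaps each or starts beside it (blue squares). SLC3A2 lies at 2.32 and its partner SNHG1 at -0.54, and TRNAU1AP lies at 0.41 beside SNHG12 at -0.72.

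Host lncRNAs outside the 10 changed in both directions as well. Of 18 further hosts, 12 passed the filter, 2 rose and 1 fell, with a median log2 ratio of 0.14, beside 17.7% of all genes called. SNHG32 had 57.2, 63.9 and 53.3 CPM in EZA replicates 1 to 3, against 17.2, 17.3 and 25.8 CPM in DMSO replicates 1 to 3, and rose by 1.53 ± 0.19 (adjusted p = 0.00295, edgeR). EPB41L4A-AS1 had 27.1, 37.4 and 57.5 CPM in EZA and 16.5, 15.5 and 18.3 CPM in DMSO, a rise of 1.28 ± 0.25 (adjusted p = 0.0143) that was lost without each DMSO replicate. SNHG4 had 11.0, 10.8 and 11.1 CPM in EZA and 23.5, 23.5 and 23.1 CPM in DMSO. It fell by 1.09 on the log2 scale (adjusted p = 0.00263). The calls of SNHG32 and SNHG4 were kept under all 15 alternatives.

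With EZA replicate 3 left out, 3 of the 12 rose and 5 fell, beside 38.4% of all genes called. SNHG3, DANCR and SNHG10 lay below DMSO in all 3 EZA libraries and missed the threshold with all 6, at log2 ratios of -0.64 ± 0.20, -0.67 ± 0.30 and -0.88 ± 0.28 (edgeR adjusted p = 0.0584, 0.151 and 0.0607). SNHG29 had 370 CPM in EZA and 279 CPM in DMSO on average, with overlapping groups. Among all 1175 tested lncRNAs, 66 rose and 45 fell, or 9.45%, with a median of 0.02, and 19.8% were called without EZA replicate 3. The lncRNA genes outside the 10 that GENCODE shows around a snoRNA numbered 69, of which 22 were tested, with 2 higher, 1 lower and a median of 0.06. This set overlaps the 12 above, and its called genes are again SNHG32, EPB41L4A-AS1 and SNHG4.

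Most snoRNAs in the human genome lie in introns of protein-coding genes, many of them genes of translation. Of 273 such hosts in the annotation 210 were tested, 11 rose and 30 fell, with a median log2 ratio of -0.14, beside 17.7% of all tested genes called. After correction for GC content and length 10 were higher and 14 lower, with a median of -0.05. When EZA replicate 3 was left out, 42 rose and 68 fell, beside 38.4% of all genes called. Among 19 tested non-ribosomal mRNAs that begin with an oligopyrimidine tract, EEF1D, an elongation factor subunit, and FAU, kept in this list although part of its product is a ribosomal protein, rose by 0.49 ± 0.13 and 0.51 ± 0.14 (edgeR adjusted p = 0.0355 and 0.0361). Neither call held after correction for GC content and length, and that of FAU returned when EZA replicate 3 was also left out (adjusted p = 0.00425, edgeR). The median of the 19 was 0.07. Without EZA replicate 3, 8 rose and 2 fell, beside 38.4% of all genes called. Of 81 tested genes with a ribosomal protein symbol, paralogs included, 7 rose and 0 fell, with a median of 0.09, beside 9.89% of all genes called higher. After correction for GC content and length 2 were higher and 0 lower, with a median of 0.07, beside 6.72% of all genes higher. In the fit without EZA replicate 3, 49 of the 81 rose and 1 fell, beside 19.1% of all genes higher. EZA replicate 3 lay at a median of -0.75 on the log2 scale from EZA replicates 1 and 2 in these genes. In the 10 lncRNA hosts that median was -0.04.

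In the list of 12 genes that control oligopyrimidine-tract translation, 1 rose and 1 fell, beside 17.7% of all tested genes called. EIF4EBP1, an inhibitor of cap-dependent translation that mTOR phosphorylates, rose to 249 ± 80.7 CPM in EZA, against 115 ± 13.3 CPM in DMSO (adjusted p = 0.0171, edgeR). LARP4, a poly(A)-binding stabiliser of mRNA, fell to 40.2 ± 1.82 CPM in EZA, against 64.8 ± 5.87 CPM in DMSO (adjusted p = 0.0115, edgeR). Neither call held after correction for GC content and length. When EZA replicate 3 was also left out both were called, EIF4EBP1 at 0.98 and LARP4 at -0.24 (adjusted p = 9.37e-11 and 0.0161, edgeR). In that setting 38.6% of all genes were called. LARP1, the repressor that binds these tracts, was at 0.09 ± 0.17 on the log2 scale.

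Among 21 factors of NMD, 1 was called, beside 17.7% of all tested genes. RNPS1, a splicing-dependent component at exon junctions, fell to 167 ± 39.9 CPM in EZA, against 274 ± 2.78 CPM in DMSO, a log2 ratio of -0.71 ± 0.18 (adjusted p = 0.0297, edgeR). UPF1, the central helicase, was at -0.10, and the list's median was -0.14, or 0.0085 after correction for GC content and length. With EZA replicate 3 left out, 2 of the 21 were higher and 8 lower, beside 38.4% of all genes called. Of 8 mRNAs used as readouts of NMD, 5 rose and 0 fell, with a median of 0.76, beside 9.89% of all genes called higher. The 5 were ATF4, UPP1, GADD45A, GADD45B and MAP3K14, with log2 ratios of 1.92, 1.10, 1.45, 0.88 and 0.65. After correction for GC content and length 4 of the 8 were higher, beside 6.72% of all genes, and the median was 0.46. MAP3K14 was no longer called (adjusted p = 0.1478, edgeR). As background, ATF4 is the main factor of the integrated stress response, and several of these genes also respond to stress by transcription. Transcription and decay were not separated here, and what raised these mRNAs was not tested. TBL2, SMG5 and RP9P, also in the list, were not called, with TBL2 at 0.03 ± 0.12 and SMG5 at 0.33 ± 0.13.

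SR splicing factors carry poison exons that send part of their transcripts to NMD. Of 11 tested, 4 fell and 0 rose, with a median of -0.37, beside 17.7% of all genes called, 7.82% lower. SRSF1 fell to 56.7 ± 8.03 CPM in EZA, against 127 ± 17.0 CPM in DMSO (adjusted p = 0.00409, edgeR), and SRSF4 to 79.4 ± 0.694 CPM in EZA, against 135 ± 4.396 CPM in DMSO (adjusted p = 0.00521). SRSF11 and SRSF2 also fell, with log2 ratios of -0.57 ± 0.12 and -0.66 ± 0.17. After correction for GC content and length 2 of the 11 were lower, beside 4.99% of all genes, and the median was -0.0034. Of 12 RNA decay genes, cytoplasmic and nuclear, 2 fell, with a median of -0.30, beside 17.7% of all genes called, 7.82% lower. The 2 were XRN1, the 5′ to 3′ exonuclease that degrades NMD fragments, at -0.69 ± 0.13, and TENT4B, a non-canonical poly(A) polymerase, at -0.77 ± 0.14 (adjusted p = 0.0132 and 0.0105, edgeR). Neither call held after the same correction, and that of TENT4B returned when EZA replicate 3 was also left out (adjusted p = 0.0108, edgeR).

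Of 12 genes of the box C/D particle and its assembly, 3 fell and 1 rose, with a median of -0.24, beside 17.7% of all genes called. NOP56 and NOP58, core proteins of the particle, fell to 231 ± 8.48 and 79.7 ± 7.73 CPM in EZA, against 315 ± 11.2 and 111 ± 2.37 CPM in DMSO. NUFIP1, an assembly factor, fell by 0.65 on the log2 scale, and PIH1D1, a subunit of the R2TP assembly complex, rose by 0.48 (edgeR adjusted p = 0.0247 and 0.0397). After correction for GC content and length NOP56 alone was called, and the adjusted p of NOP58, NUFIP1 and PIH1D1 was 0.145, 0.0927 and 0.165. With EZA replicate 3 also left out, NOP56, NOP58 and NUFIP1 were called and PIH1D1 was not, beside 38.6% of all genes called. FBL, the methyltransferase fibrillarin, was at 0.03 ± 0.12. Of 6 genes of the box H/ACA particle edgeR called 0, with 2 at an unadjusted p below 0.05, while DESeq2 and limma-voom called 1 each. DKC1, the pseudouridine synthase dyskerin, was at 0.06 ± 0.16. When EZA replicate 3 was left out, 2 of these 6 were higher and 2 lower, beside 38.4% of all genes called. Of the protein-coding genes called and named in these lists, ATF4, UPP1 and SRSF1 kept the call under all 15 alternatives, and the others lost it without at least 1 DMSO replicate.

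**Figure D5:**
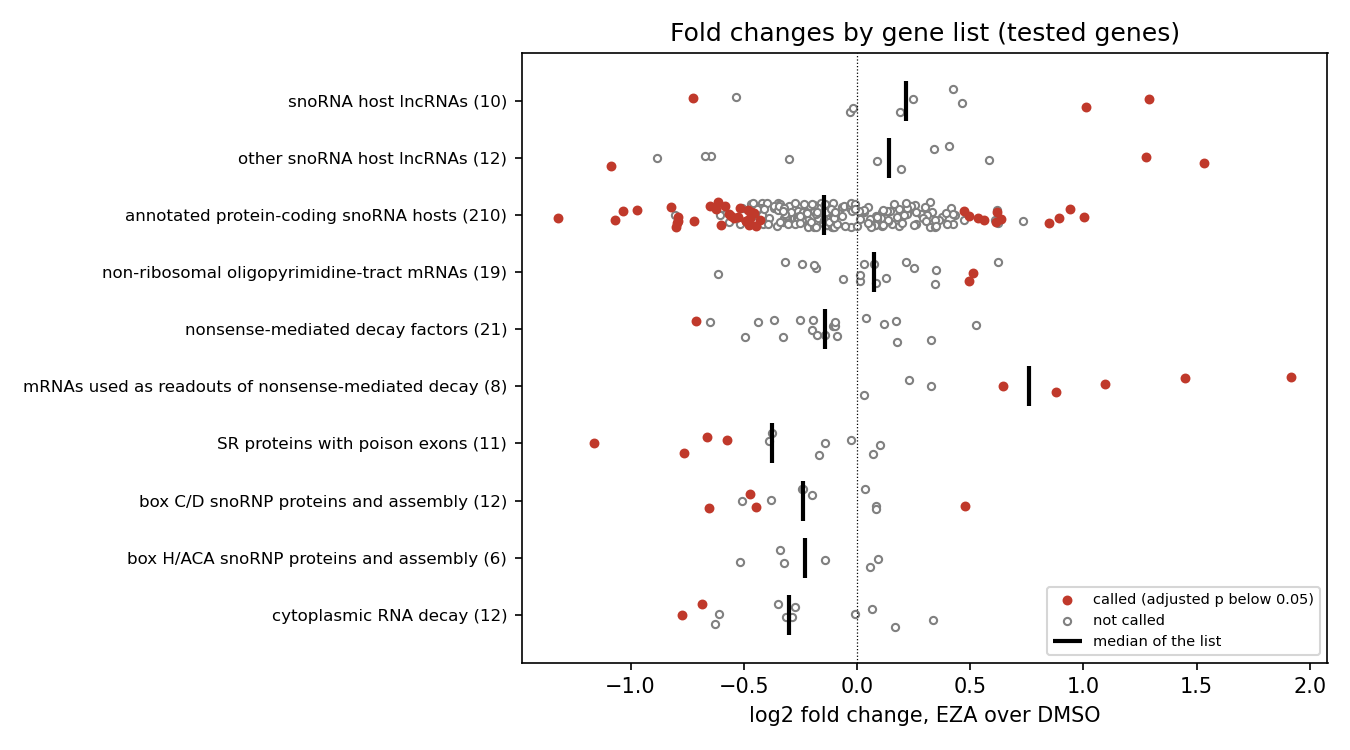
Log2 ratio, EZA over DMSO, of every tested gene in 10 lists, with the number tested in parentheses, called genes in red and a black bar at the list's median. The readouts of NMD have a median of 0.76, against 0.22 in the 10 snoRNA host lncRNAs and -0.37 in SR proteins. The list labelled cytoplasmic RNA decay also holds genes of nuclear decay.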

How the data were processed

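Libraries were made from poly(A) RNA with a kit that keeps no strand information, per the labels' protocols. Tools and build, per the submitters' processing notes, were HISAT2, featureCounts, FastQC, DESeq2 and GRCh38 (hg38); the sources used here give neither versions nor the counting annotation. The values the authors deposited are raw counts and FPKM for each Ensembl gene. FPKM are deposited values scaled to length and depth. Counts were used for every test. FPKM were used only to compare levels between genes.

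Symbols, positions, GC content and length came from GENCODE 44, which held 58207 of 58735 identifiers. GC content and length are those of each gene's longest transcript, which can exceed the length behind the deposited FPKM. Genes kept by filterByExpr entered edgeR 4.0.16's robust quasi-likelihood test (two-sided, TMM scaling, R 4.3.3) with Benjamini-Hochberg adjustment over 13503 genes. SEs were derived from the F statistic. Members, lists and tests were chosen with earlier results of these data known. All members are named. Of each list of symbols up to 4 called genes with the smallest adjusted p are named, with 1 changed the other way, besides tested neighbours, some of which are not reported here. Hosts taken from the annotation are given as counts. MAP3K14, further genes and the ribosomal protein list were picked with values in view. Alternatives used DESeq2 1.42.0, limma 3.58.1, other scalings, filters, the replicate block, left-out libraries and removal of the GC and length trend by lowess. The edgeR step was tested on simulated data. Replicates differed by more than counting noise, so none was counted as a copy. The study calls replicates biological without naming separate cultures, so the spread behind the p-values may be technical. Intervals cover the fit's error only.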

Additional observations from a re-analysis of the deposited data

How the results depend on the processing

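With all 6 libraries 2392 genes were called, with 2 hosts higher, 1 lower and 2 past the study's threshold. The last count was 1 with scaling by library size alone, with limma-voom, without a low-count filter, with the replicate block and in all 3 settings after correction for GC content and length. With no filter 2 hosts were lower. With the trend removed 1581 genes were called and 4 hosts were higher, with EZA replicate 3 also left out 5328 and 5, and with the trend removed and the replicate block 645 genes. Leaving out 1 library in turn gave 220 to 5289 genes, 0 to 5 hosts higher, 0 to 1 lower and 0 to 2 past the study's threshold. The cause of these moves was not tested.

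Same-numbered samples had correlations of deviations of 0.0319, -0.195 and 0.022, so no pairing by number was seen. EZA replicate 2 correlated best with DMSO replicate 1 (0.195). Because EZA replicate 3 stood apart, weak correlations cannot exclude a pairing. The replicate block gave 1970 genes, 2 hosts higher and 1 lower.

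Over 150 refits of single hosts, 116 kept sign and side of the threshold, 11 lost a call, 13 gained one and 10 turned sign. ZFAS1 turned to 0.044 without EZA replicate 1, 0.0039 without EZA replicate 3, 0.059 without DMSO replicate 1, 0.062 with the trend removed, 0.073 without EZA replicate 3 too and 0.057 with the block too. It ranged over left-out libraries from -0.1427 to 0.059. SNHG16, with -0.05116 as its lowest such value, turned to 0.035 without DMSO replicate 1 and to 0.087, 0.066 and 0.088 in the same 3 trend settings. Among other genes, SNHG20 turned to -0.18 without EZA replicate 2 and to -0.0080 and -0.059 with the trend removed, without and with the block. Its highest value without 1 library was 0.3351. SNHG17, at most 0.3127 without 1 library, turned to -0.012 without EZA replicate 3 and -0.12 with the trend removed too. None of these was called. SNHG12 rests on 105 to 219 counts per library, the fewest of the 10.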
